A study of Homo sapiens with 9 samples.

Results

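The libraries described here are the 3 that carry replicate number 1, of 9 RNA-seq libraries made from HKC-8 cells, an established human line of kidney proximal tubule epithelium. They are control1, p-Wnt1-1 and p-Wnt1-kl1, one from each treatment group, and they are set against the 6 libraries numbered 2 and 3. Control cells received the empty plasmid pcDNA3, Wnt1 cells received p-Wnt1, a plasmid that carries Wnt1, a secreted ligand, and the group called Wnt1_KP6 received p-Wnt1 and was treated with KP6, a peptide derived from the kidney protein Klotho. All groups thus share transfection with a plasmid and the same cell line, which is a single line and not primary tubule. The labels give every library the same batch number, 1, and do not tell whether each replicate was its own culture, so the p-values below measure a spread between samples that may be technical. Replicate 1 was chosen by measured values, the gene counts of these same libraries, in which earlier results had placed it apart. Its difference from replicates 2 and 3 is therefore given as a description with no test. Tests are kept for whether the treatment differences in replicates 2 and 3 were also present in replicate 1. Each of these tests compares the replicate 1 difference between groups. It thus draws on the same counts by which replicate 1 was chosen, and its p-values are not independent of that choice.

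The 9 libraries held 21199078 to 27507623 expected counts (read counts estimated per gene), and 13153 of 20323 genes passed the filter on low counts. Levels are counts per 1e+06 counts of the scaled library (CPM), and a count of 0 allows up to 0.109 to 0.142 CPM in a library, counting error only. Transcripts of the mitochondrial genome made up 5.18% to 5.72% of counts in the replicate 1 libraries and 7.01% to 7.97% in the other 6. Of the proximal tubule markers, PAX8 and GGT1 were present in every library, whereas LRP2, AQP1, HNF4A, PAX2 and ANPEP had 0 to 10 counts. The epithelial markers EPCAM, KRT8 and KRT18 were present throughout, and CDH1 had 0 to 4 counts. WNT1 had 0 counts in all control and all Wnt1 libraries and 1, 2 and 0 counts in Wnt1_KP6, so the counts give no check of the plasmid label in any replicate.

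Several regulatory systems recur below. The co-activators YAP and TAZ, bound to DNA by TEAD factors, and the actin-regulated factor SRF raise genes of adhesion, matrix and the cytoskeleton when cells spread or come under tension, and TGF-beta raises many of the same genes in kidney tubule cells. Interferons raise a family of antiviral genes through response elements in their promoters. SREBP factors raise the enzymes of sterol and fatty acid synthesis when membrane cholesterol falls. Immediate early genes are switched on within a short time of a stimulus, without new protein synthesis.

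The split between replicate 1 and replicates 2 and 3, which was chosen by these same values, held a larger share of the variance than treatment group. Summed over genes, the variance of log2 CPM was 36.9% between replicate 1 and replicates 2 and 3, 28.8% between treatment groups, 22.7% in the dependence of the replicate 1 difference on the group, and 11.6% between replicates 2 and 3. Within a group, replicate 1 was at least 2-fold from the mean of the other 2 for 1290 genes in control (9.81% of those tested), 756 in Wnt1 (5.75%) and 1078 in Wnt1_KP6 (8.20%). A gene was counted as apart where it passed 2-fold in the same direction in all 3 groups. That held for 204 genes higher in replicate 1 (1.55% of 13153) and for 44 genes lower (0.335%). The same rule set replicate 2 against the other 2 at 9 genes higher and 49 lower, and replicate 3 against the other 2 at 15 and 42. In both of these the other 2 include replicate 1, so a gene far higher in replicate 1 can count there as lower. These counts therefore cannot serve as a baseline for the 44 genes. Between replicates 2 and 3, where replicate 1 has no part, the rule found 2 genes higher in replicate 2 and 5 lower. Without control replicate 1, when only 2 groups had to pass, the counts were 376 and 111, and without Wnt1 replicate 1 they were 283 and 122.

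Low levels were common among the genes that were higher in replicate 1. The median of their mean level was 1.15 CPM, against 9.20 CPM for the genes that were lower and 27.8 CPM for all genes tested. In all, 53 of the 204 and 24 of the 44 had a mean of at least 5 CPM. The weakest of the 3 group differences was 1.00 (log2) for HMCN1 and BBLN, just inside the threshold, and 0.99 for ERBB3, just outside. On the other side MT1G at -1.02 was just inside and ADAMTS6 (-0.999) and SLC1A4 (-0.997) just outside. By a rule with no fold size, in which all 3 replicate 1 libraries lie beyond all 6 others, 1456 genes (11.1%) were higher and 1288 (9.79%) lower.

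Among the replicate 1 libraries, Wnt1 and Wnt1_KP6 were nearly alike. They were 2-fold apart for 1.16% of genes, with a chi-square per degree of freedom of 3.45 over their counts. Replicates 2 and 3 of a single group were 2-fold apart for 1.31% of genes in control, 1.74% in Wnt1 and 1.63% in Wnt1_KP6, with chi-square values per degree of freedom of 13.4, 3.09 and 3.32. In replicate 2 the Wnt1 and Wnt1_KP6 libraries were 2-fold apart for 4.07% of genes and in replicate 3 for 3.66%, with chi-square values of 40.9 and 42.4. Across genes, the replicate 1 differences correlated at r = 0.67 between Wnt1 and Wnt1_KP6, 0.35 between control and Wnt1 and 0.32 between control and Wnt1_KP6 (13153 genes, which are not independent replicates, and which share library sizes).

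**Figure D1:**
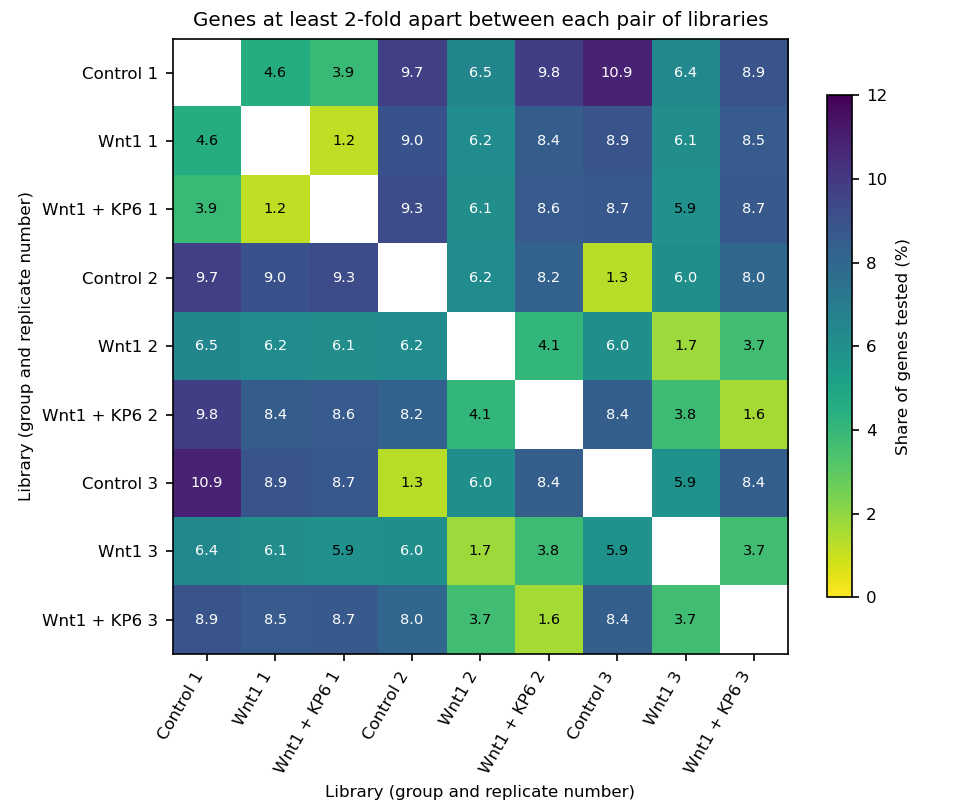
Share of the genes tested that were at least 2-fold apart between each pair of the 9 libraries, in percent, with libraries ordered by replicate number and then by group. The Wnt1 and Wnt1 + KP6 libraries of replicate 1 differed for 1.2% of genes, control replicate 1 differed from control replicates 2 and 3 for 9.7% and 10.9%, and replicates 2 and 3 of a group differed for 1.3% to 1.7%.

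Among protein-coding genes that were apart, with no overlap between replicate 1 and the other libraries and a mean of at least 5 CPM, the 4 with the largest decreases in replicate 1 were TAGLN, INHBA, CCN1 and CCN2. TAGLN, which encodes the actin-binding smooth muscle protein transgelin (chromosome 11, 117199321 to 117204782, build hg38), was at 7.21, 3.94 and 4.14 CPM in replicate 1 of control, Wnt1 and Wnt1_KP6. Replicates 2 and 3 held 142 and 164 CPM in control, 25.0 and 35.5 in Wnt1 and 81.3 and 78.5 in Wnt1_KP6. No replicate 1 library reached the lowest of the other 6, and the difference was -3.89 ± 0.31 (log2, SE over all 9 libraries with treatment group as a block). In bulk RNA, fewer cells of a type and less RNA per cell cannot be told apart, here and for every gene below.

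INHBA, which encodes the activin A subunit of the TGF-beta family (chromosome 7, 41667168 to 41705834), was at 15.4, 36.7 and 27.8 CPM in replicate 1. Its level in replicates 2 and 3 was 324 and 279 CPM in control, 86.7 and 74.5 in Wnt1, and 444 and 496 in Wnt1_KP6, for a difference of -2.98 ± 0.67. The gap was smallest in Wnt1, where replicate 1 lay at -1.13 (log2) from the other 2, against -4.28 in control and -4.07 in Wnt1_KP6. PMEPA1, a TGF-beta target that restrains the pathway, had gaps in the same order, with -3.26 in control, -1.1 in Wnt1 and -1.82 in Wnt1_KP6. TGFBI, a secreted matrix protein named for its induction by TGF-beta, was at 245, 317 and 315 CPM in replicate 1, against 3075 and 3260 CPM in the other control libraries and 833 to 1060 CPM in the remaining 4.

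The matricellular proteins CCN1 and CCN2, both known targets of YAP and TAZ, held nearly level across the treatments in replicate 1. CCN2 (chromosome 6, 131948176 to 131951373) was at 31.7, 37.3 and 38.0 CPM there, and at 185 and 193 CPM (control), 101 and 115 CPM (Wnt1) and 1570 and 1530 CPM (Wnt1_KP6) in replicates 2 and 3. CCN1 was at 194, 179 and 159 CPM in replicate 1, and at 1102 and 1239, 693 and 795, and 3585 and 3523 CPM in the same 3 groups of replicates 2 and 3. Their differences were -2.84 ± 0.68 and -2.91 ± 0.45. DKK1, a secreted Wnt antagonist that is itself a Wnt target, was at 1.44, 2.31 and 2.55 CPM in replicate 1 and between 8.43 and 22 CPM elsewhere (-2.68 ± 0.17).

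Of 21 tested genes on the list of YAP and actin-SRF targets, 4 were apart and lower (CCN1, CCN2, TAGLN and ANKRD1) and 1 apart and higher (AMOTL1, at 0 to 1.84 CPM). The list's median difference was -0.70, with -0.90, -0.44 and -0.76 in control, Wnt1 and Wnt1_KP6, beside 0.00 for all genes, and in 13 of the 21 all 3 replicate 1 libraries lay below the other 6 (9.79% of all genes). TPM1, which encodes tropomyosin, was among these 13, at 197 to 209 CPM in replicate 1 and 327 to 1045 CPM elsewhere, and 21.4% of its exonic length overlaps a gene on the opposite strand, whose reads cannot be told apart here. Of 20 tested genes of the TGF-beta list, INHBA and PMEPA1 were apart and lower and TGFB2, a ligand, apart and higher, at 7.17 to 9.99 CPM in replicate 1 and 1.19 to 3.22 CPM elsewhere, with 26.6% of its exonic length overlapping another gene on its strand (1.55% and 0.335% of all genes were apart and higher and lower). The median of that list was -0.24, with -0.42 in control, 0.08 in Wnt1 and -0.51 in Wnt1_KP6, and 8 of 20 were above 0. ANKRD1, AMOTL1 and TGFB2 are named here after their values were seen. Other genes that were lower in all 3 groups included the growth factors PDGFB (-2.07 ± 0.32) and AREG (-2.01 ± 0.30), the GDNF receptor GFRA1 (-2.21 ± 0.12), the transcription factor gene ZBED2 (-2.72 ± 0.20), and TNFRSF19, a Wnt target (-1.93 ± 0.15).

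**Figure D2:**
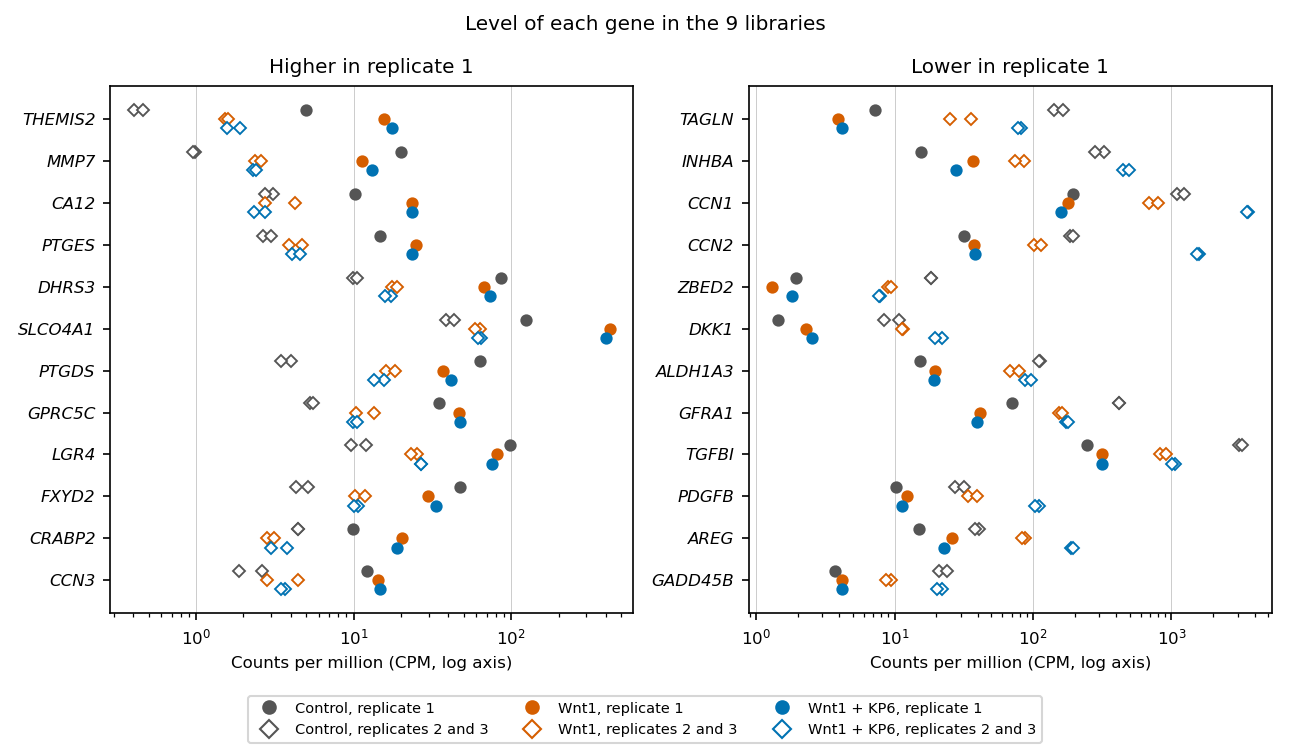
Level in CPM (log axis) of the 12 genes with the largest difference in each direction by the limits given above, for each of the 9 libraries. Filled circles are replicate 1, open diamonds are replicates 2 and 3, and colours are the treatment groups. For each gene the 3 filled circles lie on one side of all 6 diamonds, and TAGLN shows the largest gap, with 3.94 to 7.21 CPM in replicate 1 and 25.0 to 164 CPM elsewhere.

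Promoter sequence was read for 10495 of the tested genes from RefSeq (build GRCh38.p14) as the 250 bases before each annotated start. The sequences of CCN2 and DKK1 are shown because both genes were lower in replicate 1 in all 3 groups and both windows hold GGAATG (capitals), the letters bound by TEAD factors. They are written 5′ to 3′ on the gene's strand. CCN2 lies at chr6:131951373-131951622 on the minus strand, with matches that begin 169, 104 and 95 bases before the start, and DKK1 at chr10:52314031-52314280 on the plus strand, with a match 50 bases before it.
CCN2: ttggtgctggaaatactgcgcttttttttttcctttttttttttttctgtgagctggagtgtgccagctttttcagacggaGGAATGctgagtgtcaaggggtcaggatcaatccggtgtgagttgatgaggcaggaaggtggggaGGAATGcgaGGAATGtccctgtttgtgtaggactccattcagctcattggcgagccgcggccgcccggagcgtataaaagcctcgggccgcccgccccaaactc
DKK1: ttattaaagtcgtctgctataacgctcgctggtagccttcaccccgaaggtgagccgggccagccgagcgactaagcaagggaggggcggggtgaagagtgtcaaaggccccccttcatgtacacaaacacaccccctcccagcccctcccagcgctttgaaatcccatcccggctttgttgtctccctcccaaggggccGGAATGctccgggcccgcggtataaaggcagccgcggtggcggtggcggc
On either strand GGAATG was present in 13.3% of tested genes with a window, in 7 of 33 with a window that were apart and lower (21.2%), and in 31 of 146 that were apart and higher (21.2%). Among the genes that were apart, the share was the same in both directions.

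In every treatment group, most of the tested antiviral genes of the interferon response were higher in replicate 1. OASL (chromosome 12, 121019111 to 121039242), an oligoadenylate synthetase-like protein, was at 28.7, 125 and 127 CPM in replicate 1 of control, Wnt1 and Wnt1_KP6. Replicates 2 and 3 held 5.28 and 4.35 CPM in control, 25.0 and 26.0 in Wnt1 and 42.5 and 38.5 in Wnt1_KP6 (2.17 ± 0.15). Each replicate 1 library was thus above the other 2 of its own group, although control replicate 1 lay below the other Wnt1_KP6 libraries.

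IFIT2 and IFIT3, which encode proteins that bind viral RNA, showed the same pattern. IFIT3 (chromosome 10, 89327894 to 89340971) was at 59.6, 169 and 175 CPM in replicate 1, and at 17.6 and 17.1, 63.7 and 68.1, and 42.5 and 44.2 CPM in replicates 2 and 3 of control, Wnt1 and Wnt1_KP6 (1.73 ± 0.10). IFIT2 was 1.81 ± 0.09 higher, from 61.2 against 16.1 and 14.1 CPM in control to 172 against 49.1 and 45.3 CPM in Wnt1_KP6. IFI44L (chromosome 1, 78619922 to 78646145) was at 12.9 to 14.8 CPM in replicate 1 and at 1.1 to 6.46 CPM elsewhere (2.07 ± 0.32). The IFIT genes are close paralogs, and how the authors' counting shared reads between them is not known.

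Of 36 tested interferon-stimulated genes, 11 were apart and higher (ISG15, IFI44, IFI44L, IFIT1, IFIT2, IFIT3, IFITM1, OASL, DDX60, HERC5 and RSAD2) and 0 apart and lower, against 1.55% and 0.335% of all genes. The list's median difference was 0.58, with 0.67 in control, 0.51 in Wnt1 and 0.70 in Wnt1_KP6. In these groups 33, 24 and 30 of the 36 were above 0, against 6609, 6591 and 6677 of all 13153 genes. With no overlap, 9 of the 36 were higher in replicate 1 and 0 lower (11.1% and 9.79% of all genes). The Wnt1 vs control difference of the same list was present in replicate 1 and outside it. Over the list it came to 0.84 (median) among replicate 1 libraries. In replicates 2 and 3 it was 0.91, and 32 of 36 genes were called higher (edgeR, 16.1% of all genes). In a test of that difference between the replicates, described further on, it was called higher in replicates 2 and 3 for 12 of 36 (11.4% of all genes) and lower for 0.

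The promoters of IFIT3 and IFI44L are shown because they carry the core letters of the interferon-stimulated response element, TTTCNNTTTC on either strand, in capitals. RefSeq lists a pair of starts for IFIT3, and the window used here lies at chr10:89327747-89327996 on the plus strand, with matches 156 and 122 bases before the start. The IFI44L window lies at chr1:78620198-78620447 on the plus strand, with matches on the opposite strand that begin 164 and 73 bases before the start.
IFIT3: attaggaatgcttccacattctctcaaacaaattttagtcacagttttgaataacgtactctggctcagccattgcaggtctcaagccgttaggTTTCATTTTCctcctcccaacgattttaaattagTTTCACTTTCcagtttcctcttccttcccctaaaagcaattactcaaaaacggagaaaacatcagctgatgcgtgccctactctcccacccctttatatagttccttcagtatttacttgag
IFI44L: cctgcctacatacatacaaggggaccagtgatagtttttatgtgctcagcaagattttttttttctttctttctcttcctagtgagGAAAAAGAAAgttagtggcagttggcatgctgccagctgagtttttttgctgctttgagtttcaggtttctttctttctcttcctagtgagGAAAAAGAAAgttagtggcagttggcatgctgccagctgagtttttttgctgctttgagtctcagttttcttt
These letters were found in 3.34% of tested genes with a window, in 19 of 27 on the interferon-stimulated list, in 15 of 146 that were apart and higher and in 0 of 33 that were apart and lower. The 15 included ARHGEF6, CEACAM1, MKKS, PLA1A, TNFRSF1B and TRIM2, which are not on the list. TGANTCA (AP-1) was in 6.15% of tested genes, in 19 of the 146 higher and in 5 of the 33 lower, GTCTAGAC (SMAD) in 0.248%, 0 and 0, and the SRF CArG box in 157 of 10495, 3 and 2. TCACNCCAC (a sterol regulatory element) was in 1.18% of tested genes and 1 of 19 on the cholesterol list, and TGACGTCA (a cAMP response element) in 3.31% and 4 of 25 on the immediate early list. A match describes letters and shows no binding.

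By the same limits, the 12 genes with the largest increases in replicate 1 were THEMIS2, MMP7, CA12, PTGES, DHRS3, SLCO4A1, PTGDS, GPRC5C, LGR4, FXYD2, CRABP2 and CCN3. THEMIS2, a signalling adaptor of immune cells (chromosome 1, 27872543 to 27886685), was at 4.96, 15.5 and 17.4 CPM in replicate 1, and at 0.403 and 0.462, 1.52 and 1.59, and 1.91 and 1.56 CPM in the other libraries of control, Wnt1 and Wnt1_KP6. Its difference of 3.37 ± 0.12 was nearly the same in each group (3.30, 3.26 and 3.27). MMP7, a matrix protease and a known Wnt target in the kidney, was at 19.98, 11.4 and 13.1 CPM in replicate 1 and at 0.963 to 2.59 CPM elsewhere (3.01 ± 0.34). CA12, a membrane carbonic anhydrase, was at 10.2, 23.5 and 23.6 CPM and at 2.34 to 4.23 CPM elsewhere (2.62 ± 0.23). GPRC5C, an orphan receptor, was 2.29 ± 0.13 higher and CCN3, a matricellular protein of the family of CCN1 and CCN2, 2.15 ± 0.17 higher.

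PTGES and PTGDS are prostaglandin synthases. PTGES, which makes prostaglandin E, was at 14.7, 24.9 and 23.6 CPM in replicate 1 and at 2.68 to 4.71 CPM elsewhere (2.45 ± 0.10). PTGDS, which makes prostaglandin D, was at 63.0, 36.7 and 41.4 CPM and at 3.47 to 18.2 CPM elsewhere (2.29 ± 0.50), and 23.4% of its exonic length overlaps another gene on its strand.

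Of the genes with the largest differences that handle retinoids, DHRS3 and CRABP2 were higher and ALDH1A3 lower. DHRS3, which reduces retinal, was at 86.1, 67.5 and 72.9 CPM in replicate 1 and 9.97 to 18.9 CPM elsewhere (2.39 ± 0.18), and CRABP2, a retinoic acid carrier, was 2.17 ± 0.25 higher. ALDH1A3, which makes retinoic acid, was at 15.3, 19.7 and 19.4 CPM in replicate 1 and 68.5 to 112 CPM elsewhere (-2.33 ± 0.17), with 27.5% of its exonic length overlapping a gene on the opposite strand.

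The lists of tubular injury and of epithelial genes did not share a direction. In the tubular injury list 1 of 14 was apart and higher and 0 lower (1.55% and 0.335% of all genes), 8 were above 0, and the median of 0.26 was 0.56 in control, -0.17 in Wnt1 and -0.32 in Wnt1_KP6, and -0.13 over all groups without control replicate 1. LCN2, which encodes the injury marker neutrophil gelatinase-associated lipocalin (chromosome 9, 128149071 to 128153455), was at 617, 455 and 497 CPM in replicate 1, and at 78.4 and 84.9, 170 and 177, and 168 and 168 CPM in the other libraries of the 3 groups (2.00 ± 0.26). The integrin ITGB6 (-0.96 ± 0.10, with 20.6% of its exonic length overlapping another gene on its strand) and the annexin ANXA1 (-0.78 ± 0.10) of the same list were lower. In the epithelial list 2 of 21 were apart and higher and 0 lower, 10 were above 0, and the median was -0.06. CLDN4, a tight junction protein, was at 14.3, 32.8 and 30.5 CPM and at 4.81 to 8.64 CPM elsewhere (1.94 ± 0.14). KRT7, a keratin, lay on the other side, at 104 to 141 CPM in replicate 1 and 191 to 536 CPM elsewhere (-1.07 ± 0.32). SCNN1A, a subunit of the epithelial sodium channel, was at 18.7 to 20.7 CPM in replicate 1 and 2.90 to 8.55 CPM elsewhere (1.78 ± 0.25), and FXYD2, a regulator of the sodium pump, was 2.19 ± 0.31 higher. The organic anion transporter gene SLCO4A1 was at 124, 421 and 401 CPM in replicate 1 and 38.7 to 64.7 CPM elsewhere (2.39 ± 0.19).

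Wnt pathway genes did not share a direction. Of 13 tested Wnt targets and feedback genes, LGR4 and AXIN2 were apart and higher and DKK1 and TNFRSF19 apart and lower (1.55% and 0.335% of all genes), and the list's median was 0.03. LGR4, a receptor that enhances Wnt signalling, was at 98.7, 81.8 and 75.8 CPM in replicate 1 and at 9.59 to 26.8 CPM elsewhere (2.19 ± 0.28). AXIN2, named here after its values were seen, was low, at 2.32, 2.31 and 1.75 CPM and at 0.179 to 1.04 CPM elsewhere (1.70 ± 0.31), and 25.2% of its exonic length overlaps another gene on its strand. MYC was lower in every replicate 1 library, at 127, 202 and 199 CPM against 234 to 622 CPM elsewhere (-1.06 ± 0.15). CTNNB1, which encodes beta-catenin, was at 305 to 314 CPM in replicate 1 and 259 to 298 CPM elsewhere (0.16 ± 0.06). KL, which encodes Klotho, was at 4.04, 1.56 and 1.71 CPM in replicate 1 and at 2.17 to 3.93 CPM elsewhere (-0.47 ± 0.24).

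Other lists had smaller differences, with few or no genes apart. Cytosolic ribosomal protein genes had a median of 0.23 over 54 genes, with 53 of them above 0, and in 25 replicate 1 lay above the other libraries with no overlap (11.1% of all genes). The median was 0.27 in Wnt1 and 0.32 in Wnt1_KP6, but 0.06 in control, where 37 of 54 were above 0. RPS18 was at 671, 636 and 649 CPM in replicate 1 and 449 to 493 CPM elsewhere (0.46 ± 0.05), the largest in the list. Genes of ribosome biogenesis, which assemble these proteins with ribosomal RNA, had a median of -0.24, with 3 of 26 above 0 and 10 of 26 lower with no overlap (9.79% of all genes).

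Mitochondrially encoded genes had a median of -0.47, with 0 of 13 above 0 and 8 lower with no overlap (9.79% of all genes). MT-ND4, a subunit of complex I, was at 5794, 6089 and 6741 CPM in replicate 1 and 10148 to 11968 CPM elsewhere (-0.78 ± 0.07). The nuclear-encoded genes of the respiratory chain had a median of 0.09, with 38 of 54 above 0, but of -0.08 in control, with 21 of 54 above 0. In 8 of the 54 replicate 1 was higher with no overlap and in 0 lower, against 11.1% and 9.79% of all genes. The mitophagy list had a median of 0.05 (-0.02 without Wnt1 replicate 1), and its largest difference was in BNIP3 (0.89 ± 0.21), a mitophagy receptor that was at 113, 174 and 169 CPM in replicate 1 and at 66.4 to 112 CPM elsewhere.

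Lists of stress genes differed among themselves. The heat shock list had a median of -0.44, with 1 of 20 above 0 and 12 lower with no overlap (9.79% of all genes), and HSPB1, a small chaperone, was at 301, 399 and 429 CPM in replicate 1 and 588 to 770 CPM elsewhere (-0.89 ± 0.11). ATF4 and amino acid stress genes had a median of -0.40, with 17 of 30 lower with no overlap, against the same 9.79%. Among them were the cystine transporter SLC7A11, at 65.6, 103 and 83.6 CPM in replicate 1 and 107 to 212 CPM elsewhere (-1.03 ± 0.10), and the glutamine transporter SLC1A5 (-0.96 ± 0.09, with 23.8% overlap on the opposite strand). DDIT4, an inhibitor of growth signalling on the same list, was higher, at 167, 346 and 335 CPM and 64.7 to 131 CPM elsewhere (1.56 ± 0.25, with 41.2% overlap on the opposite strand). The unfolded protein response list had a median of -0.07 (0.16 in control, -0.23 in Wnt1 and -0.27 in Wnt1_KP6), which was 0.09 without Wnt1_KP6 replicate 1, and 9 of 21 were above 0. Canonical histone genes had a median of -0.66 over 12, and poly(A) selection captures few of their transcripts. The DNA replication list had a median of -0.12, with 10 of 47 above 0 and 12 lower with no overlap. The mitosis list had a median of -0.10, with 11 of 45 above 0 and 6 lower with no overlap (9.79% of all genes).

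**Figure D3:**
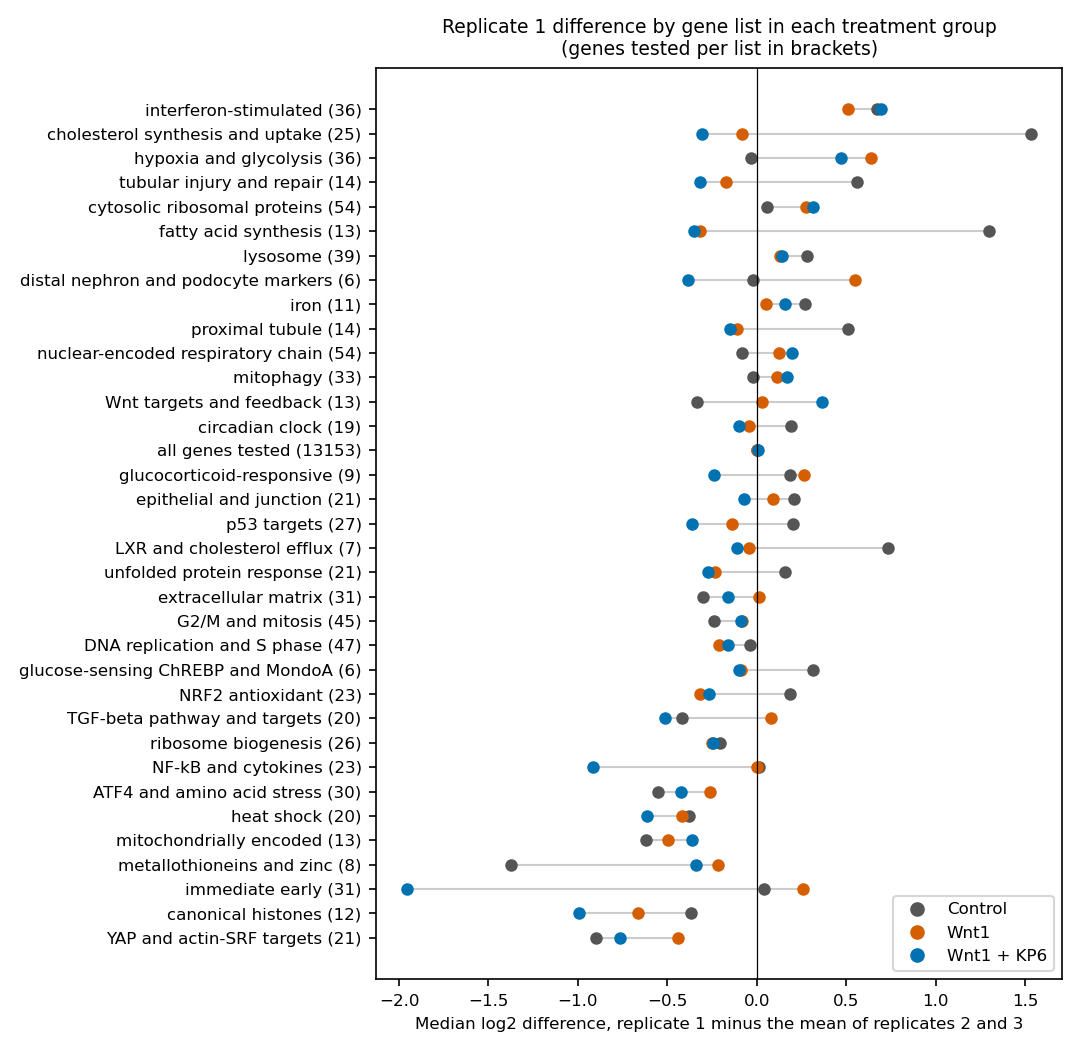
Median log2 difference of replicate 1 from the mean of replicates 2 and 3, for each gene list with at least 5 tested genes, in control (grey), Wnt1 (orange) and Wnt1 + KP6 (blue), with the number of genes in brackets. The 3 groups lie close together for interferon-stimulated genes (0.51 to 0.70) and ribosome biogenesis (-0.25 to -0.21), and far apart for cholesterol synthesis (-0.30 to 1.53) and immediate early genes (-1.95 to 0.26).

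A small set of genes was detected only, or nearly only, in replicate 1. Of all 20323 genes, 13 had at least 10 counts in each replicate 1 library and at most 3 counts summed over the other 6: TMEM255A, TDRD9, COL14A1, NRK, PTPRB, DPYSL5, PNMA8A, MAF, NDN, ADD2, ZNF518B, DSC3 and CTHRC1. The reverse rule found 0 genes, and the same rule found 0 genes for replicate 2 and 1 for replicate 3. The 13 genes were listed by their values and get no test, and 7 of them had 0 counts in all 6 other libraries. Their counts summed to 364, 470 and 397 in replicate 1 of control, Wnt1 and Wnt1_KP6, which is 0.00134%, 0.00171% and 0.00162% of each library, and to 10 over the other 6 libraries together. TDRD9 had 48, 59 and 42 counts in replicate 1 and 0 in all 6 others, which allows up to 0.0206 CPM over the 6 (3 counts), counting error only. COL14A1, a fibril-associated collagen of connective tissue, had 47, 55 and 45 counts against 1 in all others, and NDN, a growth suppressor expressed from the paternal allele, had 21, 21 and 23 against 0. The levels of all 13 were low, between 0.426 and 2.67 CPM. The ratio of the highest to the lowest of the 3 replicate 1 libraries had a median of 1.25 over the genes, and PTPRB, with 13, 54 and 31 counts, varied more.

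Some of these genes are known from connective tissue, and markers of other cell types were checked across all libraries. The 5 fibroblast markers PDGFRA, PDGFRB, DCN, LUM and THY1 summed to 2.03 to 5.42 CPM in replicate 1 and 0.130 to 0.623 CPM elsewhere. LUM, a matrix proteoglycan, had 64, 66 and 42 counts in replicate 1 and 0 to 3 in the others. In Wnt1 and Wnt1_KP6 replicate 1 most of the sum was LUM, at 2.34 and 1.67 CPM. DCN with 38 counts and PDGFRA with 23.8 were high in control replicate 1 alone (0 to 5 elsewhere). PDGFRB had 16, 2 and 2 counts in replicate 1 and 1 to 8 in the others, and THY1 had 12, 5 and 7 against 1 to 7. Of the defining markers of other cells, KDR, PTPRC, CD3E, UMOD, AQP2 and WT1 were at 0 in every library, but others were not. NPHS1 had 25, 21 and 10 counts in replicate 1 and 5 to 12 in the others, SLC12A3 4 to 22 throughout and CD14 0 to 11. Podocyte markers summed to 0.398 to 0.914 CPM in replicate 1 and 0.183 to 0.536 CPM elsewhere. For distal nephron markers the sums were 0.457 to 0.745 and 0.183 to 0.955 CPM. The 4 endothelial markers summed to 0.239 CPM at most. Immune markers summed to 37.7 to 51.0 CPM in replicate 1 and 26.1 to 50.6 CPM elsewhere, nearly all of it CD68, of whose exonic length 81.7% overlaps another gene. The part of other cells, of the lower mitochondrial share and of any handling shared by the replicate 1 libraries in the differences above was not tested.

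Per-chromosome medians lay between -0.03 and 0.04 over all groups. Within groups they ran from -0.14 (chromosome 22) to 0.11 (chromosome 18) in control, from -0.06 to 0.05 in Wnt1, and from -0.10 (chromosome 4) to 0.13 (chromosome 19) in Wnt1_KP6, and chromosome 19 was at -0.13 in control. By gene length, the median of 3 equal classes of genes, short, middle and long, was 0.00, 0.00 and 0.01 over all groups. Within groups it ran from -0.08 in the shortest to 0.08 in the longest genes in control and from 0.07 to -0.05 in Wnt1_KP6.

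Whether the treatment differences themselves were alike in replicate 1 was tested as an interaction, the treatment difference in replicates 2 and 3 minus that in replicate 1. The test was edgeR's quasi-likelihood test over 13153 genes with Benjamini-Hochberg adjustment, in a fit of 6 means with 3 residual degrees of freedom. Since replicate 1 has a single library in each group, the spread comes from replicates 2 and 3 only, and a replicate 1 library is assumed to vary like them. The same quantity is the replicate 1 difference of one group minus that of another, so the choice of replicate 1 bears on its p-values. The 3 interactions share libraries and are not independent. For Wnt1 vs control 1506 genes (11.4%) were called higher and 1729 (13.1%) lower in replicates 2 and 3 than in replicate 1. For Wnt1_KP6 vs Wnt1 the counts were 408 (3.10%) and 58 (0.441%), and for Wnt1_KP6 vs control 2185 (16.6%) and 2134 (16.2%). Leaving out 1 library of replicates 2 or 3 moved some of these counts by over 1.5 times. Without control replicate 2 the counts were 2730 and 2857 for Wnt1 vs control and 836 and 307 for Wnt1_KP6 vs Wnt1, and without control replicate 3 they were 829 and 301 for the latter. Wnt1 vs control had 993 called higher without Wnt1 replicate 2, and Wnt1_KP6 vs control had 1391 called lower without Wnt1_KP6 replicate 3. The 58 genes became 38, 30, 15 and 31 without Wnt1 replicates 2 and 3 and Wnt1_KP6 replicates 2 and 3, and the 408 became 258 without Wnt1_KP6 replicate 2. In the lists below where edgeR called 0 genes in a direction, DESeq2 also called 0 and the count at an unadjusted p under 0.05 was 0, except for 2 genes of the TGF-beta list for Wnt1 vs control. For the interferon list that count was 3.

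Genes that differed between treatments in replicates 2 and 3 showed little of that difference in replicate 1. Fits within replicates 2 and 3 called 787 genes (5.98%) higher for Wnt1_KP6 vs Wnt1, 2112 (16.1%) higher and 1989 (15.1%) lower for Wnt1 vs control, and 2765 of 13153 higher for Wnt1_KP6 vs control. Scaled by library totals, without TMM, Wnt1_KP6 vs Wnt1 had 623 genes higher and 716 lower in place of 787 and 336, and Wnt1_KP6 vs control 2047 and 3950 in place of 2765 and 2517. With a library left out the 336 ranged from 85 (without Wnt1_KP6 replicate 2) to 907 (without control replicate 2), the 2517 became 1424 and 1517 without Wnt1_KP6 replicates 2 and 3, and the 787 became 1451 without control replicate 2 or 3, 522 without Wnt1 replicate 3 and 516 without Wnt1_KP6 replicate 2. The 2112 and 1989 became 1310 and 1094 without Wnt1 replicate 2 and 1250 and 1026 without Wnt1 replicate 3. Of those at least 2-fold higher for Wnt1_KP6 vs Wnt1, 216 in number, the median difference was 1.54 there and -0.05 in replicate 1, where 1 gene passed 2-fold. The 351 genes called 2-fold higher for Wnt1 vs control had a median of 1.54 in replicates 2 and 3 and 0.03 in replicate 1, with 54 past 2-fold. For the 188 called 2-fold lower the medians were -1.37 and 0.39, and 45 of them were past 2-fold in the opposite direction in replicate 1, against 5 in the same direction. For Wnt1_KP6 vs control the 607 genes that were higher had medians of 1.59 and 0.12. Replicate 1 had differences of its own: 374 genes (2.84%) were 2-fold higher and 225 (1.71%) lower for Wnt1 vs control, 316 (2.40%) and 201 (1.53%) for Wnt1_KP6 vs control, and 80 (0.608%) and 73 (0.555%) for Wnt1_KP6 vs Wnt1, with no replicate behind these counts.

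**Figure D4:**
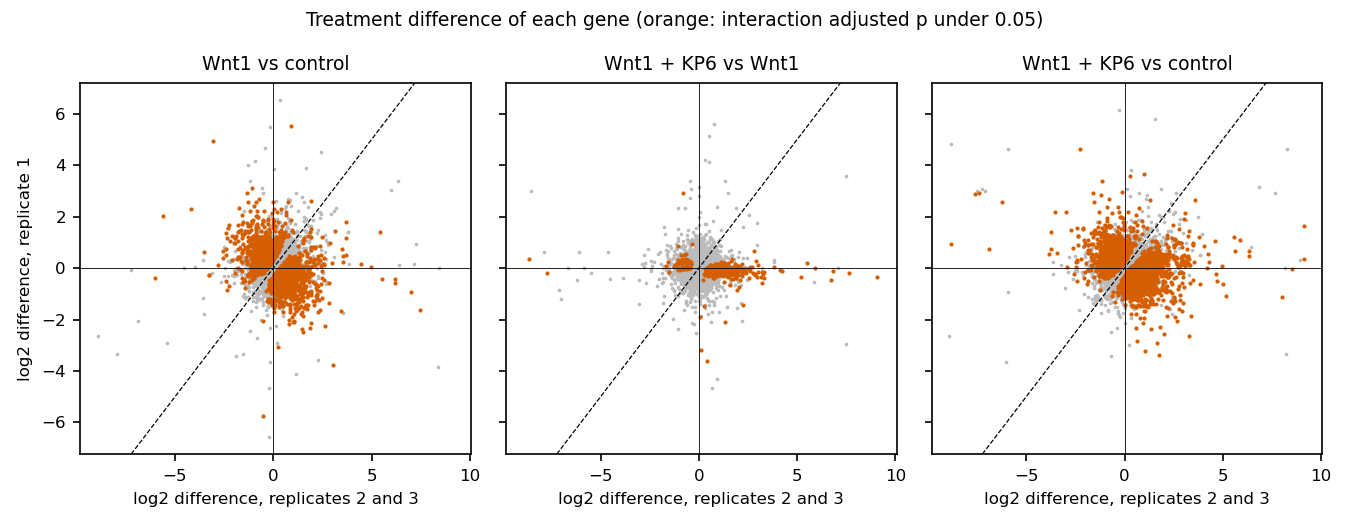
Log2 treatment difference of each gene in replicates 2 and 3 (horizontal) and in replicate 1 (vertical) for the 3 comparisons, with genes whose interaction had an edgeR adjusted p under 0.05 in orange and the line of equal differences dashed. In the middle panel (Wnt1 + KP6 vs Wnt1) the orange genes lie along the horizontal axis: the 216 genes called 2-fold higher in replicates 2 and 3 had a median of -0.05 in replicate 1.

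Sterol and fatty acid synthesis genes set control replicate 1 apart from the other control libraries, with the highest median differences there of the lists with at least 5 tested genes (1.53 and 1.3). The lowest there was that of the metallothionein and zinc list, at -1.37 over 8 genes. HMGCS1, which makes HMG-CoA for sterol synthesis (chromosome 5, 43289395 to 43313512), was at 818, 594 and 592 CPM in replicate 1 of control, Wnt1 and Wnt1_KP6. Replicates 2 and 3 held 114 and 98.6 CPM in control, 627 and 625 in Wnt1 and 1167 and 1244 in Wnt1_KP6. For Wnt1 vs control it thus differed by -0.46 in replicate 1 and by 2.56 ± 0.07 in the other 2, an interaction of 3.02 ± 0.12 (edgeR adjusted p = 1.62e-09).

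SCD, the desaturase that makes oleate, was at 1185, 1403 and 1403 CPM in replicate 1, and at 158 and 152 CPM in control and 1779 to 1825 CPM in the others (interaction for Wnt1 vs control 3.31 ± 0.10, edgeR adjusted p = 4.78e-11). The gene was nearly level across treatments in replicate 1 and far lower in control than in the treated groups in replicates 2 and 3. Of 25 genes of cholesterol synthesis and uptake, 24 were called with a higher Wnt1 vs control difference in replicates 2 and 3 than in replicate 1 and 0 with a lower one (11.4% and 13.1% of all genes), and the same counts held for Wnt1_KP6 vs control (16.6% and 16.2%). The list's median difference for Wnt1 vs control was 1.80 in replicates 2 and 3 and -0.07 in replicate 1. In the fatty acid list 11 of 13 were called higher and 0 lower, with medians of 1.20 and 0.06. The replicate 1 difference of the cholesterol list, 0.43 over all groups, was -0.20 without control replicate 1.

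Hypoxia and glycolysis genes showed the opposite arrangement, with a treatment difference in replicate 1 that was absent from the median of replicates 2 and 3. NDRG1, a stress and hypoxia gene, was at 78.9, 391 and 332 CPM in replicate 1, and at 73.7 and 89.7, 109 and 103, and 131 and 114 CPM in replicates 2 and 3 of control, Wnt1 and Wnt1_KP6. ANGPTL4, a lipase inhibitor induced by hypoxia and by lipids (chromosome 19, 8363289 to 8374373), was at 7.91, 60.2 and 57.2 CPM in replicate 1, and at 18.8 and 19.1, 6.89 and 7.84, and 9.03 and 7.60 CPM in the others. Its Wnt1 vs control difference was 2.91 in replicate 1 and -1.36 ± 0.12 in replicates 2 and 3 (interaction -4.29 ± 0.19, edgeR adjusted p = 5.21e-09). Of 36 genes, 29 were called with a lower Wnt1 vs control difference in replicates 2 and 3 than in replicate 1 and 0 with a higher one (13.1% and 11.4% of all genes), and for Wnt1_KP6 vs control 25 were lower and 2 higher (16.2% and 16.6%). The list's median for Wnt1 vs control was 0.66 in replicate 1 and -0.06 in replicates 2 and 3.

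NT5E, the ectonucleotidase CD73, followed the same course, at 19.1, 88.7 and 73.1 CPM in replicate 1 and 15.6 to 41.6 CPM in the others (interaction -3.41 ± 0.19, edgeR adjusted p = 2.86e-08). ID3, an inhibitor of differentiation factors induced by BMP signals, was at 4.50, 6.92 and 4.54 CPM in replicate 1 and at 118 and 141, 10.4 and 12.2, and 112 and 95.6 CPM in the others, so that the gap between replicate 1 and the other 2 was smallest in Wnt1 (-0.69, against -4.82 and -4.49). In the TGF-beta list 10 of 20 genes were called with a lower Wnt1 vs control difference in replicates 2 and 3 than in replicate 1 and 0 with a higher one (13.1% and 11.4% of all genes). The metallothionein MT2A was at 350, 668 and 529 CPM in replicate 1 and at 1612 and 1991, 626 and 629, and 507 and 478 CPM in the others (interaction -2.45 ± 0.14, edgeR adjusted p = 3.11e-08).

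The immediate early genes separated Wnt1_KP6 replicate 1 from the other Wnt1_KP6 libraries. ATF3, a stress-induced transcription factor that the study's title names, was at 18.3, 30.3 and 25.4 CPM in replicate 1. Its level in replicates 2 and 3 was 7.85 and 8.78 CPM in control, 93.9 and 93.4 in Wnt1 and 668 and 664 in Wnt1_KP6. For Wnt1_KP6 vs Wnt1 it differed by -0.25 in replicate 1 and by 2.83 ± 0.07 in the other 2, an interaction of 3.09 ± 0.12 (edgeR adjusted p = 1.52e-09).

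FOSB, a subunit of the AP-1 factor, was at 2.46, 2.63 and 2.39 CPM in replicate 1, and at 1.80 and 2.62, 6.74 and 7.59, and 844 and 755 CPM in replicates 2 and 3 (interaction for Wnt1_KP6 vs Wnt1 6.93 ± 0.34, edgeR adjusted p = 7.96e-09). NR4A1, an orphan nuclear receptor, was at 0.950, 3.62 and 3.15 CPM in replicate 1, and at 0.616 to 2.29 CPM in the other control and Wnt1 libraries and 416 and 401 CPM in Wnt1_KP6 (7.81 ± 0.27, edgeR adjusted p = 5.01e-10). In the KP6 library of replicate 1 both genes were close to the Wnt1 library of the same number. Of 31 immediate early genes, 28 were called with a higher Wnt1_KP6 vs Wnt1 difference in replicates 2 and 3 and 0 with a lower one (3.10% and 0.441% of all genes). The list's median for that comparison was 1.95 in replicates 2 and 3 and -0.10 in replicate 1. The list's replicate 1 difference, -0.63 over all groups, was 0.08 without Wnt1_KP6 replicate 1.

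Cytokine genes and the YAP targets had differences of the same sign in this comparison. IL6 was at 21.9, 92.3 and 81.6 CPM in replicate 1, and at 54.0 and 58.4, 88.5 and 84.8, and 468 and 441 CPM in the others (2.57 ± 0.12, edgeR adjusted p = 6e-09), with 20.7% of its exonic length overlapping a gene on the opposite strand. In the interaction test, 15 of 23 NF-kB and cytokine genes were called with a higher Wnt1_KP6 vs Wnt1 difference in replicates 2 and 3 than in replicate 1 and 0 with a lower one (3.10% and 0.441% of all genes). For the 21 YAP and actin-SRF targets these counts were 10 and 0. CCN2, whose levels are given above, had an interaction of 3.82 ± 0.13 (edgeR adjusted p = 5.01e-10). THBS1, a matricellular protein that activates TGF-beta, was at 13.9, 5.68 and 6.49 CPM in replicate 1, and at 7.27 to 9.94 CPM in the other control and Wnt1 libraries and 358 and 345 CPM in Wnt1_KP6 (5.31 ± 0.20, edgeR adjusted p = 1.15e-09).

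**Figure D5:**
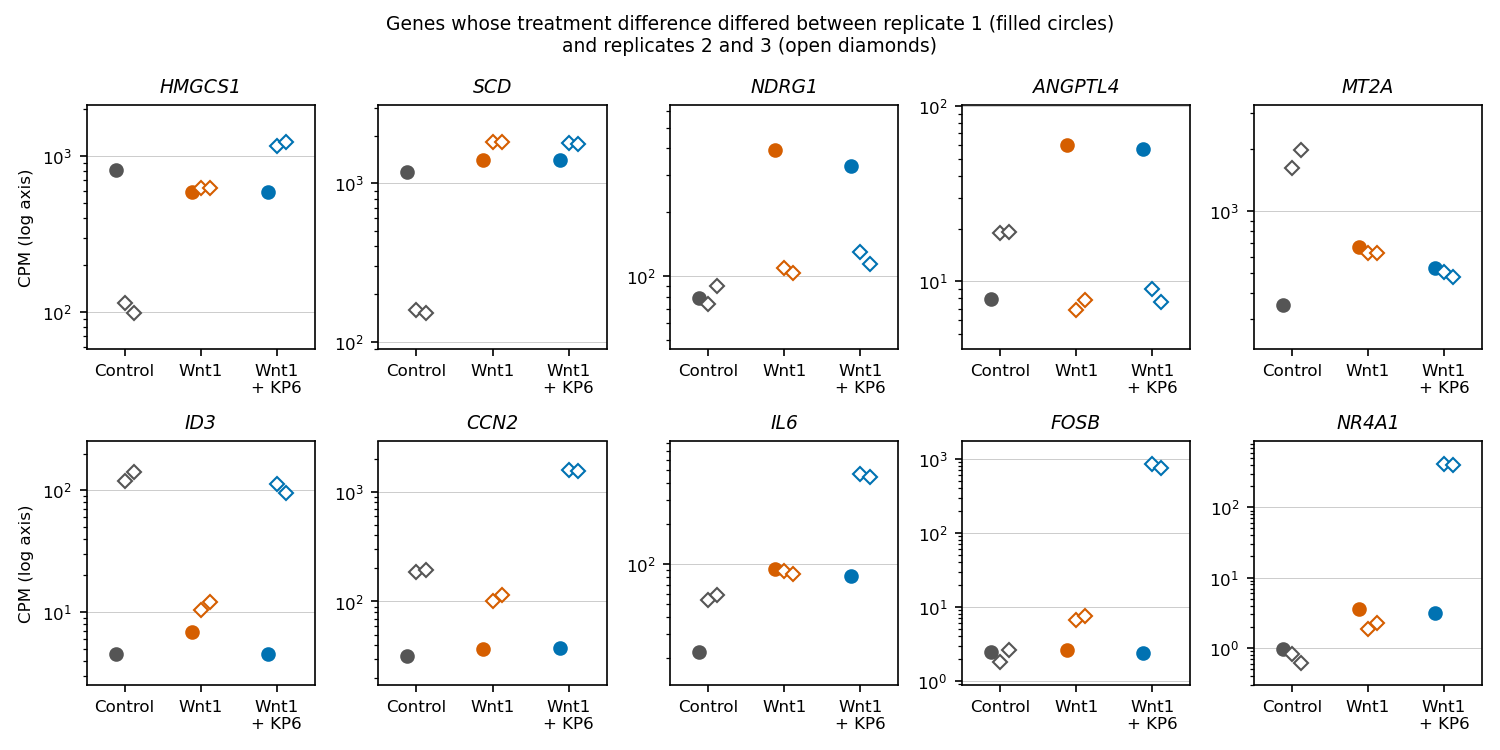
Level in CPM (log axis) of 10 genes in each library, by treatment group. Filled circles are replicate 1 and open diamonds are replicates 2 and 3. In control, HMGCS1 and SCD are high in replicate 1 only, and in Wnt1 + KP6, CCN2, IL6, FOSB and NR4A1 are high in replicates 2 and 3 only, with FOSB at 2.39 CPM in replicate 1 and 844 and 755 CPM in the others.

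Proximal tubule genes and antioxidant genes also differed by treatment between replicates, chiefly against control. GPX3, a secreted glutathione peroxidase made by the proximal tubule, was at 119, 48.4 and 52.1 CPM in replicate 1 and 27.0 to 39.2 CPM elsewhere (interaction for Wnt1 vs control 1.71 ± 0.15, edgeR adjusted p = 1.58e-06). SLC4A4, the basolateral bicarbonate cotransporter, was at 30.0, 14.8 and 14.6 CPM in replicate 1 and 39.1 to 52.3 CPM elsewhere (1.23 ± 0.16, edgeR adjusted p = 8.5e-05). For both genes the treated libraries were below control in replicate 1 and not in replicates 2 and 3. In the interaction test, 8 of 14 tested proximal tubule genes were called with a higher Wnt1 vs control difference in replicates 2 and 3 than in replicate 1 and 0 with a lower one (11.4% and 13.1% of all genes), and DESeq2 called 5 higher. For the 23 NRF2 antioxidant genes these edgeR counts were 14 and 0. In the NRF2 list the median for Wnt1 vs control was 0.85 in replicates 2 and 3 and 0.46 in replicate 1.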

How the data were processed

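Poly(A)-selected RNA of 9 HKC-8 samples was sequenced, in 3 groups of 3. The authors deposited expected counts and FPKM per gene in one table, per the file headers. The submitters' processing notes name fastp 0.18.0, Bowtie2 2.2.8, HISAT2, StringTie 1.3.1, RSEM and build hg38, and the role of each is not given in the sources used here. Whether the counting used strand is not given either, so reads of overlapping genes on opposite strands cannot be told apart.

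The deposited expected counts, of which 88.01% were whole, were rounded to whole numbers and scaled by TMM. Totals were 21199078 to 27507623 per library, and intervals and floors cover counting error only. Filtering (filterByExpr, minimum count 10, minimum total 15) kept 13153 of 20323 genes, and gene positions came from GENCODE release 29 for 20171 of the 20323. CPM values are TMM-scaled. A difference within a group is replicate 1 minus the mean of replicates 2 and 3 in log2 CPM with a prior count of 2, and the difference with its SE comes from an edgeR 4.0.16 quasi-likelihood fit (R 4.3.3, limma 3.58.1) of treatment group plus replicate 1 over all 9 libraries. Interactions and treatment differences in replicates 2 and 3 come from the same test over 6 means, with Benjamini-Hochberg adjustment over all genes and a threshold of 0.05. The authors' deposited FPKM values served only in an alternative, log2(FPKM + 1).

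Named genes are WNT1, ATF3, CTNNB1 and KL, the top 12 per direction among genes apart with a mean of at least 5 CPM and no overlap, up to 4 per list, and 6 per direction for each interaction, less a few genes that are not reported here. The part of this rule that takes list members was applied to 37 lists (936 entries, 918 in the table). Members and lists were chosen with earlier results of these data known. Same-numbered libraries deviated together from their group means (correlations 0.11 to 0.67, every pair over 0.1). Differently numbered libraries among replicates 2 and 3 of different groups did so too (0.15 to 0.40). These correlations therefore do not show pairing by the numbers 2 and 3. A replicate block is among the alternatives, with DESeq2 1.42.0, other scalings, filters and fold sizes, and each library left out. The fits were tested on simulated data.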

Additional observations from a re-analysis of the deposited data

Results flagged for a closer look

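The treatment differences of replicates 2 and 3 were set against those of replicate 1 by a test of the difference itself (edgeR's quasi-likelihood test, adjusted p under 0.05, 3 interactions that share libraries). For Wnt1 vs control 1506 genes were higher and 1729 lower in replicates 2 and 3 than in replicate 1. For Wnt1_KP6 vs Wnt1 the counts were 408 and 58, and for Wnt1_KP6 vs control 2185 and 2134. Replicate 1 has 1 library per group, so each interaction rests on the assumption that it varies like the others, and the cause was not tested. Replicate 1 was also chosen by the same counts, so these calls are not independent of that choice.

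For Wnt1 vs control, large interactions (log2) among genes with a mean of at least 5 CPM were lower for ANGPTL4 (-4.29), ID3 (-4.14), the keratin-associated KRTAP2-3 (-4.04), DOCK2 (-3.56) and NT5E (-3.41). They were higher for the guanine exchange factor VAV3 (4.91), the protease ADAMTS15 (4.01), the integrin ITGB8 (3.57), KLHDC7A (3.43) and the transporter SLCO4C1 (3.41).

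For Wnt1_KP6 vs Wnt1 they were higher for the nuclear receptors NR4A1 (7.81), NR4A3 (7.23) and NR4A2 (5.54), and for FOSB (6.93), EGR2 (5.92) and THBS1 (5.31). NR4A1, NR4A3 and EGR2 met the limit of 5 CPM only through Wnt1_KP6 replicates 2 and 3, and their sizes rest on low levels elsewhere. EGR2 was at 24.1 and 24.8 CPM there and 0.106 to 0.522 CPM in all other libraries, and NR4A3 at 206 and 214 against 0.367 to 2.59 CPM. Those lower were small by comparison: OTX1 (-1.38), ZNF500 (-1.36), HOXA7 (-1.30), GVQW3 (-1.30), ADAMTS15 (-1.25) and ALKBH4 (-1.21). Of the exonic length, 62.5% of HOXA7 and 25.3% of ALKBH4 overlap another gene.

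For Wnt1_KP6 vs control they were higher for NR4A3 (8.73), FOSB (8.54), NR4A1 (7.43), THBS1 (6.28), ATF3 (5.85) and FOS (5.68), and lower for ANGPTL4 (-4.04), DOCK2 (-3.73), the cadherin CDH4 (-2.98), LTBP2, which belongs to the latent TGF-beta binding proteins (-2.96), the nucleotide receptor P2RY6 (-2.93) and NT5E (-2.83). The limit on NR4A3 and NR4A1 given above holds here too.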

How the results depend on the processing

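No interaction of a named gene changed sign under any alternative run. The untested replicate 1 difference changed sign in 14 gene values, all without a replicate 1 library, and in 31 list medians, 17 of them without a replicate 1 library. The 204 genes apart and higher and 44 apart and lower became 438 and 167 at 1.5-fold, 50 and 5 at 4-fold, 51 and 17 on log2(FPKM + 1), which understates the change of low genes, and 53 and 24 with a mean of at least 5 CPM, a limit chosen after seeing the data. Leaving out 1 library, or all of replicate 2 or 3, they ranged from 215 to 376 and from 41 to 122.

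Over the same left-out libraries, interaction counts (higher, then lower) ranged from 993 to 2730 and 1187 to 2857 for Wnt1 vs control, from 258 to 836 and 15 to 307 for Wnt1_KP6 vs Wnt1, and from 1490 to 3212 and 1391 to 3194 for Wnt1_KP6 vs control. DESeq2 called 25 genes lower in place of 58 for Wnt1_KP6 vs Wnt1 and 1309 in place of 2134 for Wnt1_KP6 vs control. In replicates 2 and 3 alone, 2112 genes were called higher and 1989 lower for Wnt1 vs control (1250 to 2613 and 1026 to 2602 with a library left out), 787 and 336 for Wnt1_KP6 vs Wnt1 (516 to 1451 and 85 to 907, with 160 lower by DESeq2), and 2765 and 2517 for Wnt1_KP6 vs control (1925 to 3243 and 1424 to 3017). An arm reduced to 1 library was assumed to vary like the others.

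Scaling by library totals without TMM moved the median of all genes by 0.113 (log2) in the Wnt1_KP6 replicate 1 difference and by -0.102 in Wnt1_KP6 vs control of replicates 2 and 3. The calls of that comparison were then 2047 higher and 3950 lower, and those of Wnt1_KP6 vs Wnt1 623 and 716. The cause was not tested. With the replicate block the interaction counts were 1330 and 1542, 357 and 45, and 2008 and 1940, and no count moved by over 1.5 times. The large interactions flagged above were recomputed in the alternative runs, which gave 408 values, 1 per gene, comparison and run. These are not the 408 genes called higher for Wnt1_KP6 vs Wnt1. Of the values, 402 stayed past the threshold and 6 did not, all of them for Wnt1_KP6 vs Wnt1. OTX1 fell short in edgeR without Wnt1_KP6 replicate 2 (-1.32). In DESeq2 ZNF500 (adjusted p = 0.0607) and HOXA7 (adjusted p = 0.229) fell short. HOXA7 also did so in edgeR without Wnt1 replicate 2 (-1.33), Wnt1 replicate 3 (-1.27) or Wnt1_KP6 replicate 2 (-1.08). Genes near 1 CPM, common among those that were higher in replicate 1, are limited by depth.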
